A study of Mus musculus with 17 samples.

Results

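The mouse genes of the major histocompatibility complex (MHC) were followed over 4 groups of RNA-seq libraries. Members were the rows of the count tables whose symbol begins with H2- and does not carry -ps, together with B2m and Cd74. This rule found 43 genes among 53090 gene entries. Of these, 41 lie on chromosome 17 between bases 33974831 and 37483552 of mm10, B2m lies on chromosome 2 (chr2:122147686-122153083) and Cd74 on chromosome 18 (chr18:60803848-60812646). By role, the members were 2 classical class I heavy chains (H2-K1 and H2-D1), the class I light chain B2m, 22 non-classical class I heavy chains (6 of the Q region, 4 of the T region and 12 of the M region), 4 classical class II chains, 5 class II peptide editors and the invariant chain Cd74. Another 7 are listed as pseudogenes in RefSeq. H2-Ke6 carries the H2 prefix for its place in the locus and encodes an enzyme, not an MHC molecule.

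The 12 libraries came from 4 groups. YAP-M (4 libraries) was brain tumour tissue that formed after in utero electroporation with YAP-M, a construct the labels name only so in a series on YAP fusion proteins and ependymoma. YMdIDR (3 libraries) overexpressed YAP-MΔIDR, and its labels disagree on the material, giving brain tumour as the source and neural progenitors from ES cells as the cell type. SVZ (3 libraries) was wild-type, named normal brain in the protocol and brain tumour in the tissue label. NSC-YAP (2 libraries) was cultured neural progenitor cells derived from ES cells and overexpressing YAP, grown in a neural stem cell medium. The labels give no mouse strain, age, promoter of the constructs, sorting of cells or number of animals or cultures. As no sorting is named, the electroporated tissue is read here as bulk tissue that can hold host cells.

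Class I molecules are built from a heavy chain and B2m and show peptides made inside the cell to CD8 T cells and natural killer cells. Most cells of the body make them, while neurons and neural progenitors are known for low levels. Class II molecules pair an alpha and a beta chain (H2-Aa with H2-Ab1), are held by Cd74 until the editor H2-DM loads a peptide, and are made mainly by macrophages, dendritic cells and B cells. The regulator Nlrc5 is known for class I genes and Ciita for class II genes. Both act through proteins bound to the X and Y boxes of the promoters, and interferon gamma raises both.

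Total counts ran from 20784130 to 25463303 per library, and levels are given as CPM, the count of a gene relative to the total of its library, with library sizes scaled by the TMM method (factors 0.826 to 1.13). Replicates differed from each other by more than counting noise (chi-square per gene 4.17 to 84.2) with the highest value between YMdIDR replicates 1 and 3. Of the cell type lists, 17 macrophage and microglia markers summed to 2809 to 4161 CPM in YAP-M, 3598 to 4693 in YMdIDR, 508 to 666 in SVZ and 43.2 to 45.5 in NSC-YAP, where 14 of the 17 were under 1 CPM in both libraries. Most of the NSC-YAP sum was Cd68, with a mean of 39.5 CPM. The 6 progenitor markers summed to 3897 to 4137 CPM in NSC-YAP and to 266 to 289.7 in SVZ. Their sums were 1712 to 2339 CPM in YAP-M and 2749 to 3877 in YMdIDR. The 6 neuron markers stood highest in SVZ (3583 to 3699 CPM), against 224 to 496 in YAP-M, 277 to 306 in YMdIDR and 674 to 741 in NSC-YAP. YMdIDR, whose labels name both tissue and cultured cells, thus had macrophage markers as high as YAP-M. The sum of its progenitor markers lay between those of YAP-M and NSC-YAP, while single markers were split. By the test given below, 2 of the 6 were called higher and 3 lower in YMdIDR than in NSC-YAP. These are 33.3% and 50% of the list, beside 27.4% and 20.4% of all tested genes. In YAP-M against YMdIDR, 1 was higher and 2 lower (16.7% and 33.3%, beside 9.61% and 6.78%).

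Of the 43 members, 28 reached at least 1 CPM in at least 2 libraries and entered the test over 18329 genes (edgeR). A member was called where its adjusted p was below 0.05 and its groups differed by 1 or more on the log2 scale. The other 15 stayed at or below 0.541 CPM in every library: H2-Eb2, H2-T3, H2-M1, H2-M2, H2-M9, H2-M11, H2-M10.1 to H2-M10.6 and the pseudogenes H2-Pa, H2-Pb and H2-Q3. H2-M10.3, H2-M10.5 and H2-M10.6 had no count in any library. A member could pass this filter through the group where it was high, so counts over the tested members describe them and support nothing further.

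In YAP-M against SVZ, 22 of the 43 members were called higher and 2 lower. Over all tested genes 25.8% were called higher and 28.9% lower. In YMdIDR against SVZ, 23 members were higher and 1 lower, against 26.9% and 29.6% of all genes. In NSC-YAP against SVZ, 1 member was higher and 12 were lower, against 17.5% and 27.6% of all genes. The 12 are 27.9% of the 43 members, near the share over all genes. The shares over all genes are of tested genes, while the members include 15 that were not tested. These comparisons share the 3 SVZ libraries. Against NSC-YAP, 24 members were higher and 2 lower in YAP-M (28.9% and 21.6% of all genes), and 26 were higher and 2 lower in YMdIDR (27.4% and 20.4%). YAP-M against YMdIDR had the fewest calls of the 6 comparisons: no member was called higher in YAP-M and 7 were lower, against 9.61% and 6.78% of all genes. At an unadjusted p under 0.05, edgeR gave 2 members higher in YAP-M than in YMdIDR, and DESeq2 called 1, H2-Q2. The median log2 fold change of the 28 tested members was 3.35 in YAP-M against SVZ and 3.94 in YMdIDR against SVZ, beside -0.042 and -0.005 over all tested genes. The labels do not say that the samples of a group came from separate animals or cultures, so a p-value here reflects only how these samples vary, which may be technical. In bulk tissue, fewer cells of a type and less RNA per cell cannot be told apart.

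**Figure D1:**
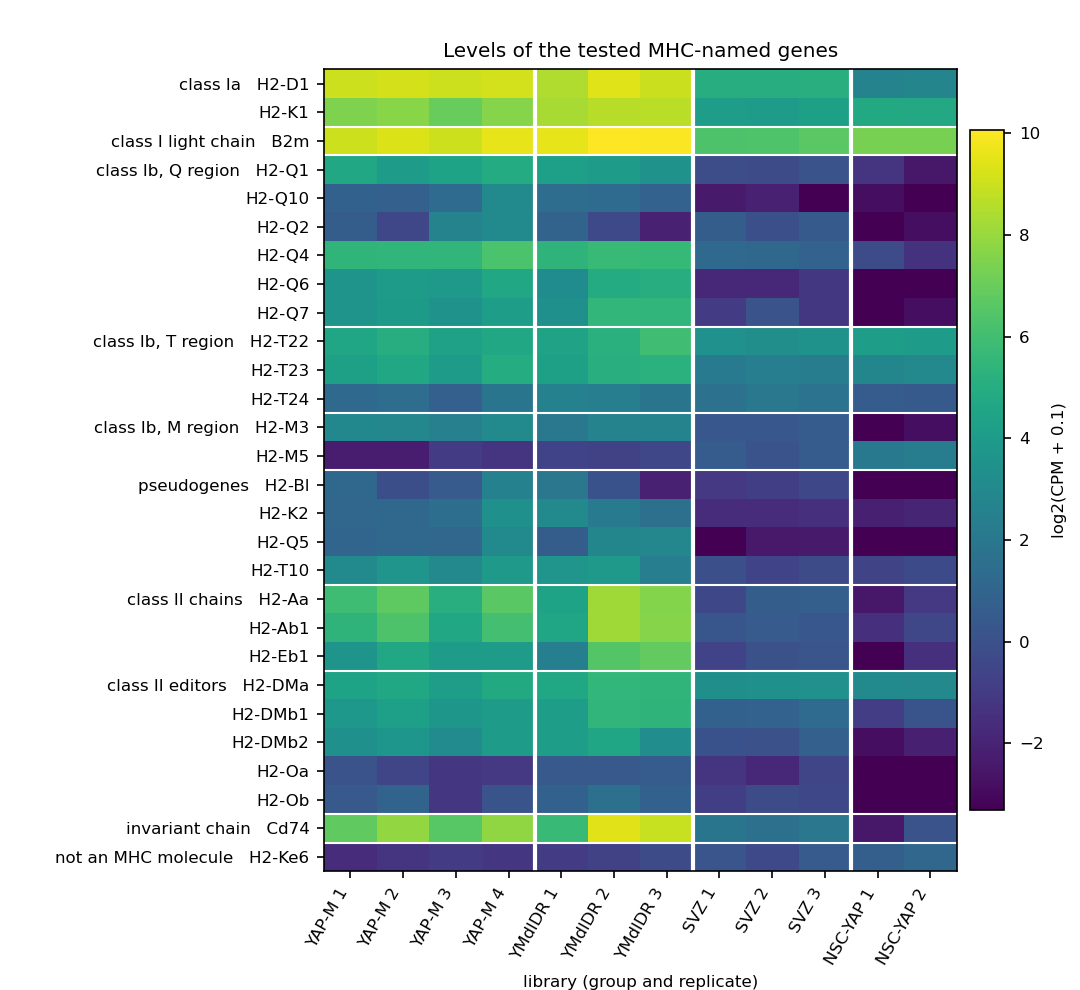
Heat map of log2(CPM + 0.1) of the 28 tested members (rows, grouped by role) in the 12 libraries (columns, group and replicate). YAP-M and YMdIDR are brighter than SVZ and NSC-YAP in most rows, H2-M5 and H2-Ke6 run the other way, and the class II rows and Cd74 are darker in YMdIDR replicate 1 than in replicates 2 and 3.

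Because most tested members were high in the same libraries, the 250 bases before the RefSeq start were searched for letters of motifs known from MHC promoters. The motifs were the NF-kB site GGGANTCCC, the core of the interferon-stimulated response element GAANNGAAA, the STAT site TTCNNNGAA, the X1 box core ACNGATG, the X2 box core TGACG and the Y box CCAAT. Both strands were read, and X1 and X2 can overlap. Over all 32851 RefSeq promoters (GRCm38.p6) these were found in 0.636%, 6.31%, 7.02%, 8.31%, 17.8% and 33.8%, in that order. Promoters were searched for 32 of the 43 members and for 20 of the 28 tested. Cd74, a tested member, was left out of this search by choice. The NF-kB letters stood in 4 of the 20 promoters and the interferon response core in 7, all of them class I genes (of 12 with a promoter). X1 letters stood in 11 of the 20, X2 in 8 and Y in 18. The Y box was in each of the 7 class II chain and editor promoters of tested members. Of these, the RefSeq start of H2-DMa lay 9664 bases and that of H2-DMb2 1942 bases from the start of the gene model in the files. Of the 12 promoters of untested members, 7 held X1 and 11 held Y. A match describes letters only, and no match says nothing of a factor.

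The promoters of 4 members are printed to show how the letters are arranged in a Q region class I gene, an M region class I gene and a class II alpha and beta chain. H2-Q7 and H2-M3 held 5 kinds of motif each, as did H2-D1, which is not printed because its gene model in the files starts 364 bases upstream of the RefSeq start. H2-Eb1 was added after its letters were seen, for its X1 and Y pair. Each runs 5′ to 3′ on the gene's strand, covers the 215 bases before the RefSeq start in GRCm38.p6, and has all motif matches in capitals.
H2-Q7 (chr17:35438940-35439154, plus strand): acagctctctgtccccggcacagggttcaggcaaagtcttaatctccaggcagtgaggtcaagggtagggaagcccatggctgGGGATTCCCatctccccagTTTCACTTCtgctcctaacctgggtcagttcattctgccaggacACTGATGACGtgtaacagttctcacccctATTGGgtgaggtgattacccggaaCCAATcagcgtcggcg
H2-M3 (chr17:37270019-37270233, plus strand): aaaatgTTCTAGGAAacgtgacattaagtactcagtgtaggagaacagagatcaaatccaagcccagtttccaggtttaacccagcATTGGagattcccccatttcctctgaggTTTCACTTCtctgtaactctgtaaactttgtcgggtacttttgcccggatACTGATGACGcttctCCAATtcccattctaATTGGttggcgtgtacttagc
H2-Aa (chr17:34287824-34288038, minus strand): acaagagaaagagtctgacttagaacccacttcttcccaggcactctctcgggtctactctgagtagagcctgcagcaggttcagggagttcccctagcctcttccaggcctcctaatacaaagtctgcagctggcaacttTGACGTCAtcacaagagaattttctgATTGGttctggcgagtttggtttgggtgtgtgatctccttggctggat
H2-Eb1 (chr17:34305652-34305866, plus strand): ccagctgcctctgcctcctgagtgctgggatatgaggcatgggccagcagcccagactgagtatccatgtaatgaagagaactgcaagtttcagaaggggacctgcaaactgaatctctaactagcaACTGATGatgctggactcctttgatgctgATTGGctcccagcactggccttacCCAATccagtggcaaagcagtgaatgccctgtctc
In H2-Q7 the capitals are, in order, the NF-kB site, the interferon response core on the minus strand, X1 overlapping X2, and a Y box on each strand. H2-M3 opens with a STAT site and has the interferon response core, overlapping X1 and X2, and 3 Y boxes. In H2-Aa overlapping X2 letters on both strands are followed by a Y box, and its X1 letters lie further out, at bases -232 to -226. In H2-Eb1 X1 stands alone before 2 Y boxes. Where X1 was on the plus strand, its first base lay 29 or 30 bases before the first base of the next Y box in H2-D1, H2-Q4, H2-Q6, H2-Q7, H2-Eb1, H2-Eb2, H2-DMb1 and H2-DMb2, 15 bases before it in H2-M3 and H2-M2, 94 in H2-Oa, and 76 to 143 in 5 of the H2-M10 genes. In H2-M3, X1 began at -51, and Y boxes after it began at -36 on the plus strand and -21 on the minus strand. The latter had the strand and distance of the genes with 29 or 30 bases. H2-D1 held the NF-kB site at -170 to -162, the interferon response core at -150 to -142, X1 at -106 to -100 and X2 at -101 to -97. H2-K1 held the first of these together with the interferon response core, X2 and Y, but no X1 letters.

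**Figure D2:**
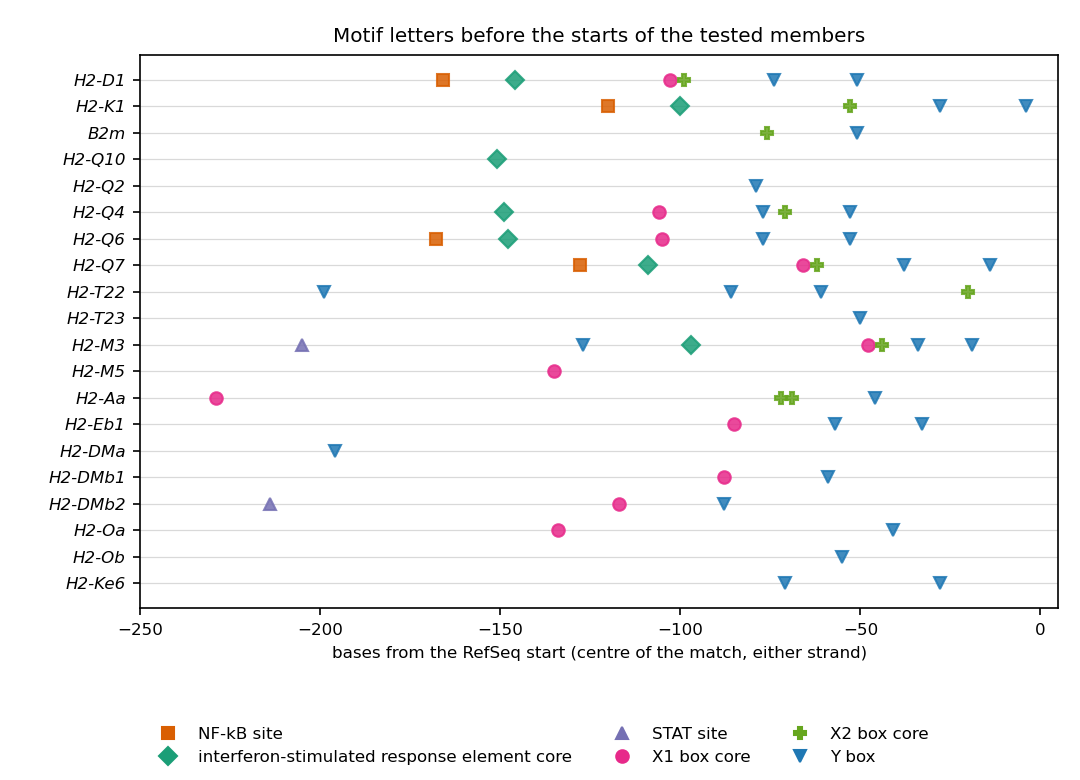
Position of each motif match (symbols by motif, either strand) in bases from the RefSeq start, for the 20 tested members whose promoter was searched. NF-kB and interferon response symbols appear in class I rows only, and the X1 symbol stands a near constant distance before a Y box in H2-D1, H2-Q4, H2-Q6, H2-Q7, H2-M3, H2-Eb1, H2-DMb1 and H2-DMb2.

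The classical class I chains were among the most abundant members. Values by library are in the order of the replicate numbers, and fold changes are log2 ± SE. H2-D1 (chr17:35262730-35267499) stood at 522, 591, 535 and 569.8 CPM in YAP-M, 352, 685 and 505 in YMdIDR, 32, 32.4 and 33.9 in SVZ and 6.15 and 6.77 in NSC-YAP. Every YAP-M and YMdIDR library was above every SVZ library, and both NSC-YAP libraries were below them all. The log2 fold change was 4.08 ± 0.21 (edgeR adjusted p = 3.42e-08) in YAP-M against SVZ, 3.97 ± 0.21 (edgeR adjusted p = 3.46e-08) in YMdIDR against SVZ and -2.34 ± 0.23 (edgeR adjusted p = 6.23e-06) in NSC-YAP against SVZ. Between YAP-M and YMdIDR, H2-D1 differed by 0.11 ± 0.17 (edgeR adjusted p = 0.634), and the YAP-M range lay inside the YMdIDR range.

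H2-K1 (chr17:33996017-34000333) stood at 178, 206, 124 and 196 CPM in YAP-M, 321, 396 and 413 in YMdIDR, 17.8, 16.9 and 19.2 in SVZ and 27.7 and 26.9 in NSC-YAP. No 2 groups overlapped, and YMdIDR was highest. H2-K1 was higher than in SVZ by a log2 fold change of 3.29 ± 0.18 (edgeR adjusted p = 6.06e-08) in YAP-M and 4.39 ± 0.19 (edgeR adjusted p = 1.25e-08) in YMdIDR. In YAP-M against YMdIDR it fell, with a log2 fold change of -1.10 ± 0.16 (edgeR adjusted p = 0.00036); without YAP-M replicate 3 the value was -0.95 (edgeR adjusted p = 0.000363), under the fold threshold. In NSC-YAP the value against SVZ was 0.60 ± 0.19 (edgeR adjusted p = 0.0156), which missed the fold threshold.

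B2m, the light chain that all class I heavy chains need at the cell surface, stood at 529.7, 663, 518 and 749 CPM in YAP-M, 768, 1068 and 1016 in YMdIDR, 81.4, 84.4 and 101 in SVZ and 159 and 158 in NSC-YAP. The 4 groups did not overlap, and SVZ was lowest. B2m rose against SVZ by 2.79 ± 0.17 (edgeR adjusted p = 1.34e-07) in YAP-M and 3.42 ± 0.18 (edgeR adjusted p = 4.01e-08) in YMdIDR on the log2 scale. It differed by 0.83 ± 0.18 (edgeR adjusted p = 0.002) in NSC-YAP against SVZ and by -0.63 ± 0.15 (edgeR adjusted p = 0.00764) in YAP-M against YMdIDR, both under the fold threshold.

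The chains did not keep 1 ratio across the groups. On the scale of CPM per kb of gene model, the ratio of H2-K1 to H2-D1 was 0.337, 0.344, 0.229 and 0.34 in YAP-M, 0.903, 0.572 and 0.809 in YMdIDR, 0.551, 0.517 and 0.559 in SVZ and 4.45 and 3.94 in NSC-YAP. H2-D1 was thus the higher of the pair in every YAP-M, YMdIDR and SVZ library, and H2-K1 in both NSC-YAP libraries. B2m per kb was 1.89, 2.09, 1.95 and 2.27 times the summed class I heavy chains in YAP-M, 2.89, 2.5 and 2.67 times in YMdIDR, 3.29, 3.42 and 3.84 times in SVZ and 8 and 7.88 times in NSC-YAP. H2-K1 and H2-D1 together made up 83, 83.6, 82.3 and 77.1% of the summed heavy chains in YAP-M, 84, 83.9 and 80.2% in YMdIDR, 66.8, 66.6 and 67% in SVZ and 56.1 and 55.8% in NSC-YAP. These ratios are descriptions. The class I genes are close copies of each other, and how the authors assigned reads that fit several of them is not given in the sources used here, so the split between single class I genes is uncertain. No mouse strain is given either, and the part of sequence differences from the mm10 build was not tested.

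**Figure D3:**
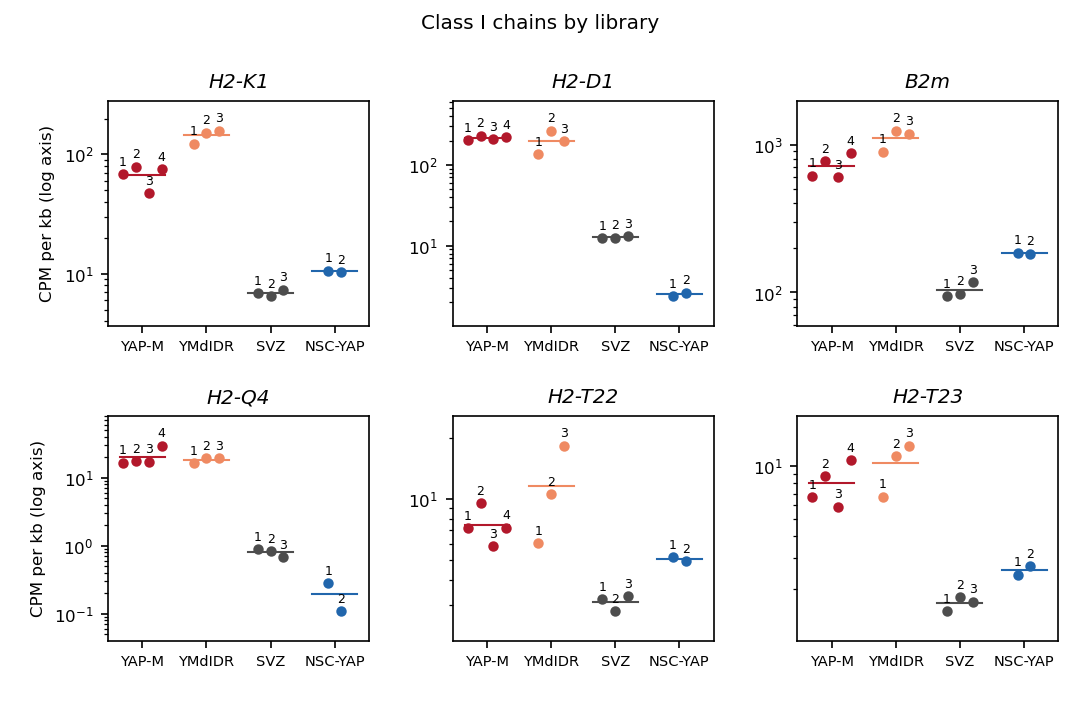
CPM per kb of gene model (log axis) of 6 class I genes by group; points are libraries with their replicate number and lines are group means. H2-D1 is lowest in NSC-YAP while H2-K1, B2m, H2-T22 and H2-T23 are lowest in SVZ, and YAP-M replicate 4 stands above replicates 1 to 3 for H2-Q4.

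Per length, B2m was the highest member in every group. In YAP-M its mean was 715 ± 129 CPM per kb (SD, n = 4), followed by H2-D1 (215 ± 12.3), Cd74 (118 ± 52.6), H2-K1 (67.4 ± 14), H2-Aa (40.1 ± 18.7) and H2-Ab1 (32.8 ± 15.3). Cd74, H2-K1, H2-Aa and H2-Ab1 are neighbours whose spreads touch. In YMdIDR (n = 3) the order was B2m (1105 ± 187), Cd74 (296 ± 238), H2-D1 (199 ± 64.7) and H2-K1 (144 ± 18.8), where the H2-D1 mean lay within the spread of Cd74 and the H2-K1 mean within that of H2-D1. In SVZ (n = 3), H2-D1 (12.7 ± 0.379), H2-K1 (6.89 ± 0.427) and H2-DMa (6.37 ± 0.32) came after B2m (103 ± 12.2). In NSC-YAP (n = 2) it was H2-K1 (10.5 ± 0.198), H2-T22 (5.05 ± 0.18) and H2-DMa (4.99 ± 0.24), after B2m (184 ± 1.61). All members together took 0.167, 0.215, 0.155 and 0.226% of the scaled library in YAP-M, 0.177, 0.39 and 0.329% in YMdIDR, 0.0179, 0.0183 and 0.0208% in SVZ and 0.0236 and 0.0237% in NSC-YAP.

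The Q region holds non-classical class I genes with narrower expression; H2-Q7 belongs to the Qa-2 antigens. Of its 6 genes, 5 were called higher in YAP-M and in YMdIDR than in SVZ and 5 lower in NSC-YAP than in SVZ. Each 5 is 83.3% of the 6, beside 25.8% and 26.9% of all tested genes called higher and 27.6% called lower. H2-Q4 was the most abundant, at 43.1, 45.5, 44.8 and 77.1 CPM in YAP-M, 42.1, 50.9 and 50.7 in YMdIDR, 2.3, 2.16 and 1.76 in SVZ and 0.733 and 0.285 in NSC-YAP. Its log2 fold change against SVZ was 4.66 ± 0.29 (edgeR adjusted p = 1.5e-07) in YAP-M and 4.52 ± 0.30 (edgeR adjusted p = 1.68e-07) in YMdIDR. The fall in NSC-YAP against SVZ was -2.02 ± 0.41 (edgeR adjusted p = 0.0011). H2-Q1 stood at 16.5 to 30.4 CPM in YAP-M and 0.764 to 0.977 in SVZ, a log2 fold change of 4.80 ± 0.34; it was 11 to 18.6 CPM in YMdIDR and 0.0815 to 0.326 in NSC-YAP.

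H2-Q7 stood at 12.1, 15.7, 11.7 and 17.8 CPM in YAP-M, 10.4, 46 and 44.1 in YMdIDR and 0.414, 0.989 and 0.342 in SVZ. Over both NSC-YAP libraries it had 1 count. YMdIDR replicate 1 was below the lowest YAP-M library and replicates 2 and 3 above the highest. H2-Q7 rose against SVZ by 4.60 ± 0.59 (edgeR adjusted p = 2.61e-05) in YAP-M, and was called lower in YAP-M than in YMdIDR (-1.22 ± 0.43, edgeR adjusted p = 0.0395), a call that was lost when any of YAP-M replicates 1, 2 and 3 or YMdIDR replicates 2 and 3 was left out. H2-Q6 stood at 12.2, 16.2, 14.8 and 25.6 CPM in YAP-M, 9.1, 29.8 and 32.3 in YMdIDR, 0.184, 0.18 and 0.342 in SVZ and at no count in NSC-YAP. Against a floor of 3 counts over the NSC-YAP group, it was at least 283-fold higher in YAP-M and at least 385-fold higher in YMdIDR. This floor, like the intervals below, covers counting error only. The calls of H2-Q1, H2-Q2, H2-Q6 and H2-Q7 as lower in NSC-YAP than in SVZ were each lost on leaving out at least 1 NSC-YAP library, and that of H2-Q6 also without SVZ replicate 3.

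H2-Q10, known as a secreted class I chain of the liver, stood at 1.69, 1.63, 2.43 and 7.94 CPM in YAP-M, 2.69, 2.48 and 1.77 in YMdIDR and 0.0921, 0.135 and 0 in SVZ, and had 1 count in NSC-YAP. It rose against SVZ by 5.38 ± 0.87 (edgeR adjusted p = 0.000154) in YAP-M and 4.81 ± 0.90 (edgeR adjusted p = 0.000442) in YMdIDR. H2-Q2 was the exception of the region: 1.44, 0.63, 6.31 and 8.31 CPM in YAP-M, 1.79, 0.676 and 0.133 in YMdIDR and 1.43, 0.854 and 1.27 in SVZ. Its YAP-M libraries lay on both sides of the SVZ range, and the value in YAP-M against SVZ was 1.81 ± 0.88 (edgeR adjusted p = 0.0786). Leaving out YAP-M replicate 1 or 2 brought H2-Q2 past the threshold against SVZ, with adjusted p = 0.0429 and 0.0218 by edgeR.

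In the T region, H2-T23 encodes Qa-1, which presents leader peptides of other class I chains to natural killer cells. H2-T23 stood at 19.3, 25.4, 17 and 31.2 CPM in YAP-M, 19.4, 33 and 37.9 in YMdIDR, 4.33, 5.17 and 4.89 in SVZ and 6.96 and 7.79 in NSC-YAP. It rose against SVZ by 2.28 ± 0.27 (edgeR adjusted p = 1.48e-05) in YAP-M and 2.65 ± 0.28 (edgeR adjusted p = 6.15e-06) in YMdIDR. H2-T22, a ligand of some gamma delta T cells, stood at 24.5, 32.5, 20 and 24.7 CPM in YAP-M, 20.6, 36.1 and 62.5 in YMdIDR, 10.9, 9.57 and 11.3 in SVZ and 17.7 and 16.8 in NSC-YAP. SVZ was lowest without overlap, and YMdIDR replicate 3 was highest. H2-T22 rose against SVZ by 1.26 ± 0.31 (edgeR adjusted p = 0.00291) in YAP-M and 1.90 ± 0.33 (edgeR adjusted p = 0.000255) in YMdIDR, and against NSC-YAP was 0.56 ± 0.34 (edgeR adjusted p = 0.162) in YAP-M and 1.20 ± 0.37 (edgeR adjusted p = 0.0125) in YMdIDR. The last of these calls was lost without YMdIDR replicate 3 and without either NSC-YAP library. H2-T24 stood at 2.28, 2.67, 1.62 and 3.6 CPM in YAP-M, 5.77, 5.13 and 3.58 in YMdIDR, 3.13, 4 and 3.32 in SVZ and 1.38 and 1.3 in NSC-YAP. It was called neither in YAP-M (-0.45 ± 0.27) nor in YMdIDR (0.47 ± 0.29) against SVZ, and fell in NSC-YAP (-1.37 ± 0.35, edgeR adjusted p = 0.0046). H2-T3, the thymus leukaemia antigen, had 11 counts in all, each of them in YAP-M.

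In the M region 2 of 12 genes were tested, and they went opposite ways. H2-M3, which presents N-formylated peptides, stood at 7.43, 7.15, 5.54 and 8.13 CPM in YAP-M, 4.06, 6.17 and 6.31 in YMdIDR and 1.15, 1.12 and 1.37 in SVZ, and had 1 count in NSC-YAP. It rose by 2.54 ± 0.27 (edgeR adjusted p = 6.39e-06) in YAP-M and 2.18 ± 0.28 (edgeR adjusted p = 2.49e-05) in YMdIDR against SVZ, and the ratio of SVZ to NSC-YAP was 59.4 (exact 95% interval 10.4 to 2378). H2-M5 was highest in the cultured progenitors: 4.19 and 4.97 CPM in NSC-YAP, 1.38, 0.989 and 1.37 in SVZ, 0.556, 0.495 and 0.618 in YMdIDR and 0.11, 0.111, 0.426 and 0.297 in YAP-M. No 2 groups overlapped. H2-M5 was the only member called higher in NSC-YAP than in SVZ (1.88 ± 0.40, edgeR adjusted p = 0.00161), and it fell in YAP-M against SVZ (-2.40 ± 0.40, edgeR adjusted p = 0.000207). The fall in YMdIDR against SVZ was -1.15 ± 0.41 (edgeR adjusted p = 0.0216) and was lost without YMdIDR replicate 2, SVZ replicate 1 or SVZ replicate 3. H2-M5 was also lower in YAP-M than in YMdIDR (-1.24 ± 0.43, edgeR adjusted p = 0.0359), a call kept without YAP-M replicate 3 or 4 and lost without any of the other 5 libraries. H2-M10.2 had 10 counts over SVZ, 1 over YAP-M and none elsewhere, and H2-M2 had 12 over YAP-M, 9 over YMdIDR and none in SVZ or NSC-YAP.

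H2-Ke6, the enzyme gene of the locus, followed the order of H2-M5. It stood at 1.55 and 2.04 CPM in NSC-YAP, 1.06, 0.674 and 1.32 in SVZ, 0.427, 0.495 and 0.751 in YMdIDR and 0.221, 0.296, 0.426 and 0.334 in YAP-M, where YMdIDR overlapped SVZ and lay just above YAP-M. H2-Ke6 fell in YAP-M against SVZ (-1.66 ± 0.35, edgeR adjusted p = 0.00103) and against NSC-YAP (-2.48 ± 0.36, edgeR adjusted p = 9.7e-05).

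Of the 7 pseudogenes, 4 were called higher in YAP-M and 3 in YMdIDR than in SVZ. These are 57.1% and 42.9% of the 7, beside 25.8% and 26.9% of all tested genes. H2-T10 stood at 8.31, 12.7, 7.89 and 15.1 CPM in YAP-M, 12.6, 14.5 and 5.12 in YMdIDR, 0.875, 0.539 and 0.733 in SVZ and 0.57 and 0.693 in NSC-YAP, and rose against SVZ by 3.94 ± 0.43 (edgeR adjusted p = 7.65e-06) in YAP-M and 3.90 ± 0.44 (edgeR adjusted p = 9.39e-06) in YMdIDR. H2-K2 stood at 2.02, 2.19, 2.73 and 10.3 CPM in YAP-M, 8.12, 4.46 and 2.96 in YMdIDR, 0.23, 0.225 and 0.244 in SVZ and 0.122 and 0.163 in NSC-YAP (4.18 ± 0.75, edgeR adjusted p = 0.000326 in YAP-M against SVZ). H2-Q5 had no count in NSC-YAP and was at least 59.5-fold higher in YAP-M and at least 84.2-fold higher in YMdIDR. H2-Bl stood at 2.13, 0.815, 1.32 and 5.79 CPM in YAP-M, 3.8, 0.946 and 0.133 in YMdIDR and 0.368, 0.45 and 0.635 in SVZ, and had no count in NSC-YAP. YMdIDR replicate 3 lay below every SVZ library, and YMdIDR was not called against SVZ (1.75 ± 1.04, edgeR adjusted p = 0.145). The call in YAP-M (2.37 ± 0.99, edgeR adjusted p = 0.048) was lost without YAP-M replicate 1 or 4 or any SVZ library. Reads of such pseudogenes can come from their near-identical functional copies.

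**Figure D4:**
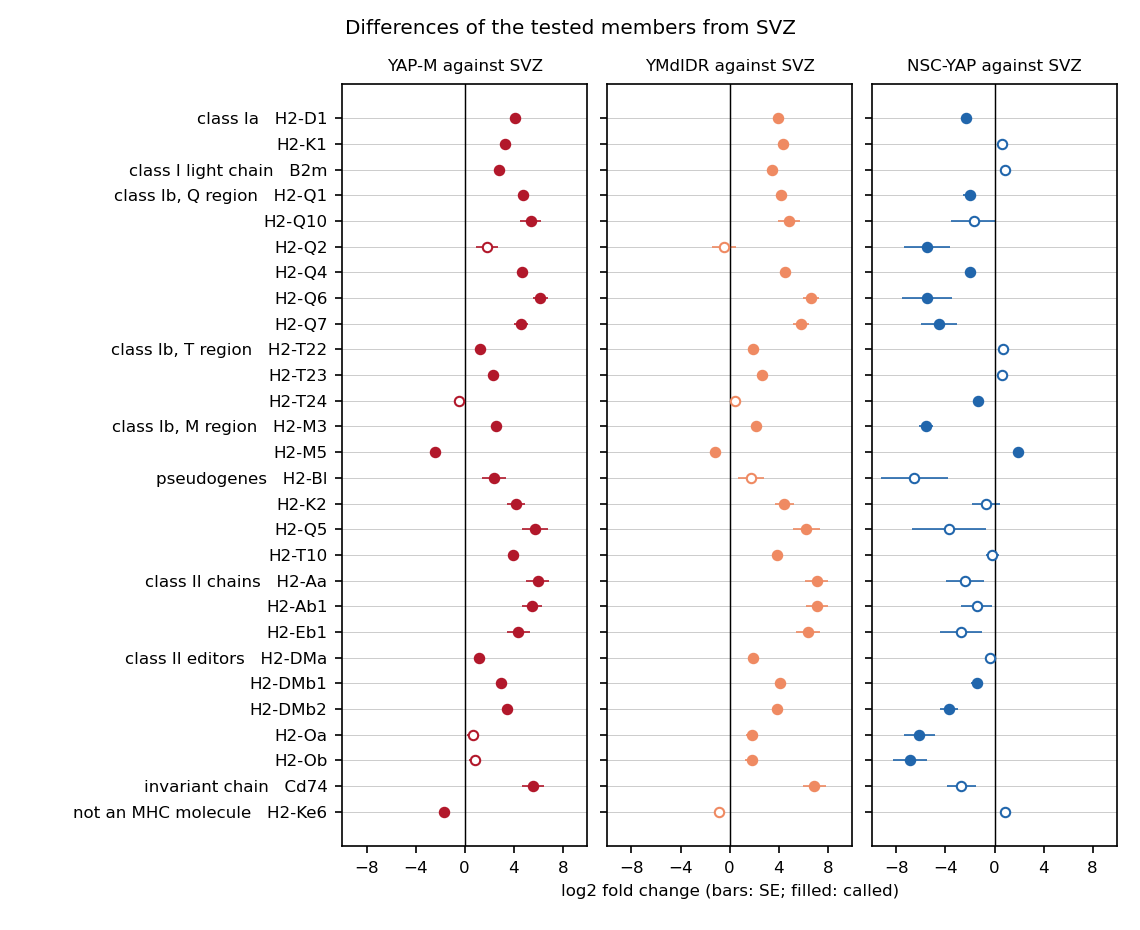
Log2 fold change against SVZ of the 28 tested members, with SE bars, in YAP-M, YMdIDR and NSC-YAP; filled points were called. H2-M5 and H2-Ke6 lie left of 0 in the YAP-M and YMdIDR panels, and H2-D1 lies right of 0 there and left of 0 for NSC-YAP; fitted values of members with no NSC-YAP count depend on the fit's prior and are no bounds.

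The class II alpha and beta chains were called higher in YAP-M and YMdIDR than in SVZ for H2-Aa, H2-Ab1 and H2-Eb1, and H2-Eb2 was not tested. H2-Aa stood at 60.3, 109, 32.9 and 98.4 CPM in YAP-M, 21.6, 288 and 189.9 in YMdIDR, 0.645, 1.44 and 1.56 in SVZ and 0.0814 and 0.367 in NSC-YAP. Its beta chain partner H2-Ab1 stood at 41.5, 81, 25.3 and 67.1 CPM in YAP-M, 24.1, 287 and 196 in YMdIDR, 1.1, 1.35 and 1.12 in SVZ and 0.244 and 0.612 in NSC-YAP. All YAP-M and YMdIDR libraries were far above SVZ, and within YMdIDR replicate 1 stood apart, below every YAP-M library. H2-Aa rose against SVZ by 5.95 ± 0.91 (edgeR adjusted p = 0.000106) in YAP-M and 7.09 ± 0.96 (edgeR adjusted p = 4.01e-05) in YMdIDR, and H2-Ab1 by 5.49 ± 0.85 (edgeR adjusted p = 0.000111) and 7.14 ± 0.91 (edgeR adjusted p = 2.43e-05). H2-Eb1 stood at 12.1, 25.9, 15.9 and 16.7 CPM in YAP-M, 5.43, 90.6 and 115 in YMdIDR, 0.553, 0.899 and 1.07 in SVZ and 0 and 0.245 in NSC-YAP. It rose against SVZ by 4.39 ± 0.93 (edgeR adjusted p = 0.00109) in YAP-M and 6.38 ± 1.00 (edgeR adjusted p = 0.00012) in YMdIDR. The related beta chain H2-Eb2 had 16 counts over YMdIDR, 3 over YAP-M, 2 over SVZ and none in NSC-YAP.

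Cd74, the chaperone that holds class II pairs until loading, followed the chains at 110.2, 234, 94.5 and 226 CPM in YAP-M, 51.6, 711 and 492 in YMdIDR, 3.59, 2.97 and 3.86 in SVZ and 0.0814 and 0.979 in NSC-YAP. Again YMdIDR replicate 1 lay below all YAP-M libraries, and replicates 2 and 3 above them. Cd74 rose against SVZ by 5.58 ± 0.88 (edgeR adjusted p = 0.000131) in YAP-M and 6.91 ± 0.95 (edgeR adjusted p = 4.26e-05) in YMdIDR, and its value in NSC-YAP against SVZ was -2.70 ± 1.20 (edgeR adjusted p = 0.0672). DESeq2 called Cd74 (adjusted p = 0.0153), H2-Aa (0.0305) and H2-Eb1 (0.0345) lower in NSC-YAP than in SVZ, and edgeR did so for Cd74 with a replicate block (0.0478) and for Cd74 and H2-Aa when only the compared groups were fitted (0.000414 and 0.00244). The highest YMdIDR library exceeded the lowest 13.3-fold for H2-Aa, 11.9-fold for H2-Ab1, 21.3-fold for H2-Eb1 and 13.8-fold for Cd74. Among class I genes it did so 1.29-fold for H2-K1, 1.39-fold for B2m, 1.95-fold for H2-D1, 3.03-fold for H2-T22, 3.55-fold for H2-Q6, 4.41-fold for H2-Q7 and 13.5-fold for the low H2-Q2, and 28.7-fold for the low pseudogene H2-Bl. In YAP-M these folds were 3.30 for H2-Aa, 3.20 for H2-Ab1, 2.14 for H2-Eb1 and 2.48 for Cd74.

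In the direct comparison, YAP-M was lower than YMdIDR in H2-Ab1 (-1.65 ± 0.61, edgeR adjusted p = 0.0484) and H2-Eb1 (-1.99 ± 0.70, edgeR adjusted p = 0.0381), while H2-Aa (-1.15 ± 0.65, edgeR adjusted p = 0.172) and Cd74 (-1.33 ± 0.66, edgeR adjusted p = 0.127) did not pass the test. Without YMdIDR replicate 1 the values were -2.17 (edgeR adjusted p = 0.00104) for H2-Ab1, -2.54 (edgeR adjusted p = 0.0002) for H2-Eb1, -1.67 (edgeR adjusted p = 0.00742) for H2-Aa and -1.86 (edgeR adjusted p = 0.00479) for Cd74, so that all 4 were called. The H2-Ab1 call was instead lost without YAP-M replicate 1, 3 or 4 or YMdIDR replicate 2 or 3, and so was that of H2-Eb1. Both were also lost with a replicate block and when only the compared groups were fitted, H2-Ab1 with median-ratio scaling and with no filter on low counts, and H2-Eb1 by DESeq2 (adjusted p = 0.0587). The number of members called lower in YAP-M than in YMdIDR was 7 with all libraries and 1 to 7 when 1 library was left out, and the lowest count came without YMdIDR replicate 2. Against SVZ, all class II calls in YMdIDR were kept without replicate 1, for example H2-Aa at 7.62 (edgeR adjusted p = 9.01e-07) and Cd74 at 7.44 (edgeR adjusted p = 8.62e-07).

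The low class II level of YMdIDR replicate 1 was set beside the macrophage markers of the same libraries. C1qa, a complement gene of microglia and macrophages, stood at 911, 607 and 488 CPM in YMdIDR, highest in replicate 1. Csf1r, the growth factor receptor of these cells, stood at 365, 342 and 334 CPM, and Lyz2, the lysozyme of macrophages, at 646, 716 and 916 CPM, lowest in replicate 1. Ptprc of the macrophage list was lowest in replicate 1 as well, at 45 CPM, and highest in replicate 2, at 58.2 CPM. The 4 class II chains summed to 1.09, 17.6 and 13.9% of the macrophage list in YMdIDR, 3.42, 5.72, 2.64 and 4.38% in YAP-M and 0.462, 0.674 and 0.565% in SVZ. Ciita, the class II regulator, was low in the same library: 0.684, 8.11 and 5.08 CPM in YMdIDR, 0.625, 0.926, 0.426 and 0.371 in YAP-M, 0.23, 0.27 and 0.293 in SVZ and 0.163 and 0.245 in NSC-YAP. Itgax, the dendritic cell and macrophage integrin, was also lowest there, at 16.8, 46.3 and 39.2 CPM in YMdIDR and 23.1, 16, 19.7 and 31.7 in YAP-M, whose range held replicate 1. The part of dendritic or other cells in this difference was not tested.

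**Figure D5:**
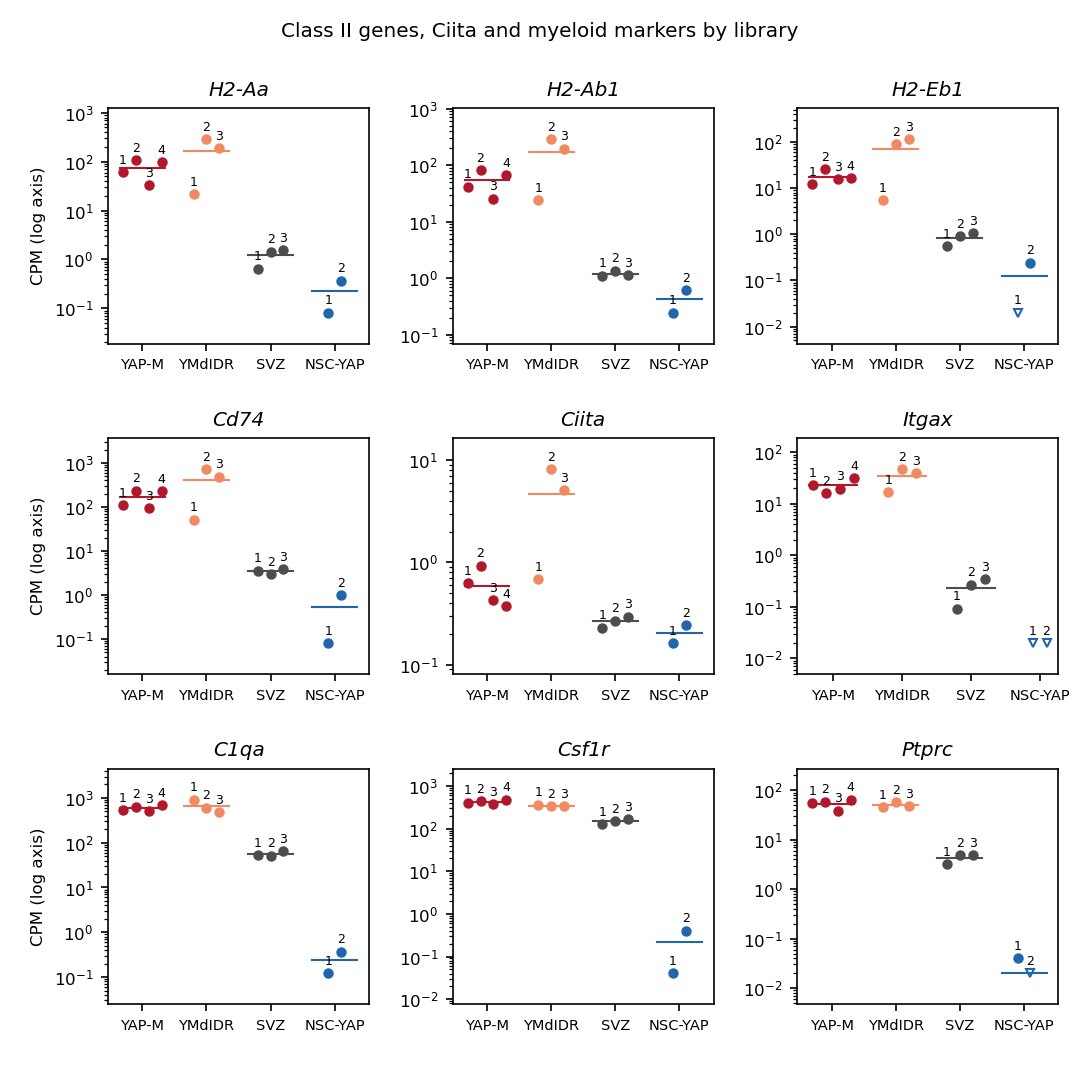
CPM (log axis) by library of 3 class II chains, Cd74, Ciita and 4 markers of myeloid cells; points carry replicate numbers, lines are group means, and open triangles at 0.02 CPM are libraries with no count. YMdIDR replicate 1 is far below replicates 2 and 3 for the class II chains, Cd74 and Ciita, and above them for C1qa and Csf1r. Itgax and Ptprc are also lowest in replicate 1 of YMdIDR.

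The editors varied less between YMdIDR libraries than the chains they load. H2-DMa stood at 21.4, 24.9, 18 and 27.6 CPM in YAP-M, 25.7, 46.4 and 43 in YMdIDR, 9.9, 10.5 and 10.9 in SVZ and 8.47 and 7.91 in NSC-YAP, so it was measured in all groups. It rose against SVZ by 1.13 ± 0.21 (edgeR adjusted p = 0.000381) in YAP-M and 1.88 ± 0.22 (edgeR adjusted p = 1.31e-05) in YMdIDR. H2-DMb1, 1 of the 2 beta chains of the editor, stood at 13.9, 18.4, 13.7 and 15.9 CPM in YAP-M, 17.4, 45.4 and 41.4 in YMdIDR, 1.7, 1.75 and 2.49 in SVZ and 0.448 and 1.02 in NSC-YAP. Here YMdIDR replicate 1 lay inside the YAP-M range. H2-DMb1 rose against SVZ by 2.97 ± 0.36 (edgeR adjusted p = 1.79e-05) in YAP-M and 4.13 ± 0.38 (edgeR adjusted p = 2.11e-06) in YMdIDR. It was lower in YAP-M than in YMdIDR (-1.17 ± 0.30, edgeR adjusted p = 0.0102), except without YMdIDR replicate 2. H2-DMb2 stood at 10.4, 12.9, 8.57 and 17 CPM in YAP-M, 18, 23.1 and 9.4 in YMdIDR, 0.921, 0.899 and 1.61 in SVZ and 0.0407 and 0.122 in NSC-YAP, with a rise of 3.42 ± 0.40 (edgeR adjusted p = 1.28e-05) in YAP-M and 3.88 ± 0.41 (edgeR adjusted p = 6.07e-06) in YMdIDR.

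H2-Oa and H2-Ob form the inhibitor of the editor, known mainly from B cells. H2-Oa stood at 0.957, 0.593, 0.341 and 0.371 CPM in YAP-M, 1.24, 1.22 and 1.41 in YMdIDR and 0.322, 0.18 and 0.586 in SVZ. H2-Ob stood at 1.21, 1.81, 0.341 and 1 CPM in YAP-M, 1.67, 2.97 and 1.68 in YMdIDR and 0.461, 0.719 and 0.635 in SVZ. Neither had a count in NSC-YAP, where SVZ was at least 5.84-fold higher for H2-Oa and at least 9.91-fold higher for H2-Ob. YMdIDR exceeded SVZ by 1.83 ± 0.50 (edgeR adjusted p = 0.00642) for H2-Oa and 1.79 ± 0.53 (edgeR adjusted p = 0.00984) for H2-Ob, while YAP-M overlapped SVZ and was not called (0.65 ± 0.49 and 0.85 ± 0.51). Without YAP-M replicate 3, H2-Ob was called higher in YAP-M, at 1.26 (edgeR adjusted p = 0.0136). H2-Oa was called lower in YAP-M than in YMdIDR (-1.18 ± 0.43, edgeR adjusted p = 0.0481), and the call was lost without any 1 of YAP-M replicates 2, 3 and 4 or any YMdIDR library. It was also lost by DESeq2 (adjusted p = 0.0668), with median-ratio scaling, with no filter, with a replicate block and when only the compared groups were fitted.

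Of 9 regulators of MHC transcription, 1 was called higher in YAP-M than in SVZ (Nlrc5), and 3 were higher and 1 lower in YMdIDR. The 1 higher in YAP-M is 11.1% of the list, beside 25.8% of all tested genes. In YMdIDR the 3 higher are 33.3%, near the 26.9% of all tested genes, and the 1 lower is 11.1% beside 29.6%. The median of the list was -0.50 in YAP-M and 0.34 in YMdIDR against SVZ. Nlrc5 stood at 5.11, 5.41, 6.1 and 6.83 CPM in YAP-M, 9.4, 19.1 and 14.5 in YMdIDR, 0.553, 1.17 and 0.586 in SVZ and 0.611 and 0.285 in NSC-YAP, with SVZ and NSC-YAP overlapping. Nlrc5 rose against SVZ by 2.92 ± 0.36 (edgeR adjusted p = 1.93e-05) in YAP-M and 4.21 ± 0.38 (edgeR adjusted p = 1.68e-06) in YMdIDR, and was lower in YAP-M than in YMdIDR (-1.29 ± 0.29, edgeR adjusted p = 0.00505), a call lost without YMdIDR replicate 2. Ciita rose in YMdIDR (4.10 ± 0.78, edgeR adjusted p = 0.000494) and not by the test in YAP-M (1.14 ± 0.77, edgeR adjusted p = 0.194), and the 2 groups differed by -2.96 ± 0.63 (edgeR adjusted p = 0.00344). Without YMdIDR replicate 1 that difference was -3.47 (edgeR adjusted p = 7.18e-05). Of the subunits that bind the X and Y boxes, Rfx5 was at -0.71 ± 0.17 (edgeR adjusted p = 0.00256) in YAP-M and -1.21 ± 0.19 (edgeR adjusted p = 0.000112) in YMdIDR against SVZ. Rfxap (-0.67 ± 0.14 and -0.71 ± 0.15), Nfyb (-0.53 ± 0.13 and -0.72 ± 0.14) and Creb1 (-0.67 ± 0.11 and -0.19 ± 0.11) stayed under the fold threshold in both. Nfya, the other gene of the list called higher in YMdIDR and named after its values were seen, stood at 43, 60.2 and 56.3 CPM there and 25.7, 25.8 and 25.1 in SVZ (1.06 ± 0.17, edgeR adjusted p = 0.000125). In YAP-M against SVZ it was at -0.13 ± 0.15. Rfxank (0.46 ± 0.20) and Nfyc (0.33 ± 0.10) were not called in YMdIDR.

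Of 8 genes that load or trim class I peptides, 5 were called higher in YAP-M than in SVZ (median 1.25), 6 in YMdIDR (median 1.57) and 2 in NSC-YAP, with 1 lower there (median 0.46). The 5 and 6 are 62.5% and 75% of the list, beside 25.8% and 26.9% of all tested genes. In NSC-YAP 25% were higher and 12.5% lower, beside 17.5% and 27.6% of all tested genes. Tap1, a subunit of the peptide transporter, stood at 30.2, 34.6, 24.6 and 35.4 CPM in YAP-M, 18.4, 41.1 and 40 in YMdIDR, 2.85, 3.82 and 2.74 in SVZ and 6.27 and 6.93 in NSC-YAP. Tap1 rose against SVZ by 3.31 ± 0.29 (edgeR adjusted p = 1.61e-06) in YAP-M and 3.40 ± 0.30 (edgeR adjusted p = 1.53e-06) in YMdIDR; the call in NSC-YAP (1.07 ± 0.32, edgeR adjusted p = 0.0116) was lost without SVZ replicate 3 or NSC-YAP replicate 2. Its partner Tap2 rose by 1.27 ± 0.18 (edgeR adjusted p = 6.34e-05) in YAP-M, and its call as lower in NSC-YAP than in SVZ stood at the fold threshold and was lost without SVZ replicate 2 or 3 or NSC-YAP replicate 2. Tapbp, which bridges the transporter and class I chains, rose by 1.70 ± 0.17 (edgeR adjusted p = 3.3e-06) in YAP-M, 2.39 ± 0.18 (edgeR adjusted p = 3.73e-07) in YMdIDR and 1.04 ± 0.19 (edgeR adjusted p = 0.000458) in NSC-YAP, where the value without SVZ replicate 1 was 0.99, under the fold threshold. The chaperones Pdia3 (1.24 ± 0.10) and Calr (0.55 ± 0.09) were higher to a lesser degree in YAP-M, and only Pdia3 passed the fold threshold. Calr was lower in YAP-M than in YMdIDR (-1.01 ± 0.09, edgeR adjusted p = 3.42e-05), at the fold threshold, and fell under it on leaving out YAP-M replicate 2, 3 or 4 or YMdIDR replicate 1 or 2.

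The immunoproteasome, which cuts peptides for class I, was higher in YAP-M and YMdIDR than in SVZ: 4 of 5 genes were called in YAP-M (median 1.94) and 5 in YMdIDR (median 2.12), against 0 higher and 2 lower in NSC-YAP against SVZ. The 4 and 5 are 80% and 100% of the list, beside 25.8% and 26.9% of all tested genes. For NSC-YAP against SVZ the shares are 0% higher and 40% lower, beside 17.5% and 27.6%. At an unadjusted p under 0.05 edgeR gave 1 of the 5 higher there, and DESeq2 called none. Psmb8 stood at 15.8, 20.7, 12.4 and 18.1 CPM in YAP-M, 20.7, 27.6 and 25.6 in YMdIDR, 1.8, 1.48 and 1.47 in SVZ and 0.0814 and 0.0408 in NSC-YAP, with no overlap between SVZ and any other group. Psmb8 rose by 3.40 ± 0.22 (edgeR adjusted p = 1.58e-07) in YAP-M and was called lower in NSC-YAP than in SVZ, with 3 counts over NSC-YAP (edgeR adjusted p = 3.72e-06). Psmb9 rose by 3.14 ± 0.32 (edgeR adjusted p = 4.64e-06) in YAP-M; its fall in NSC-YAP (-1.30 ± 0.45, edgeR adjusted p = 0.0237) was lost without SVZ replicate 2 or 3 or NSC-YAP replicate 2. The activator subunits Psme1 (1.36 ± 0.12) and Psme2 (1.94 ± 0.10) rose in YAP-M, and Psmb10 did not pass the test there (0.20 ± 0.15) but did in YMdIDR (1.30 ± 0.17). The difference of Psmb10 between YAP-M and YMdIDR was -1.10 ± 0.15 (edgeR adjusted p = 0.000304), and -0.98 without YMdIDR replicate 2.

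All 6 class II processing genes were called higher in YAP-M than in SVZ (median 2.96) and 5 in YMdIDR (median 2.64), with 0 higher and 2 lower in NSC-YAP. The 6 and 5 are 100% and 83.3% of the list, beside 25.8% and 26.9% of all tested genes. In NSC-YAP the 2 lower are 33.3%, near the 27.6% of all tested genes, and 17.5% of all were higher. Ifi30, the thiol reductase of endosomes, stood at 192, 164, 175 and 171 CPM in YAP-M, 327, 367 and 316 in YMdIDR, 9.35, 9.12 and 10.5 in SVZ and 13.8 and 17.1 in NSC-YAP, a rise of 4.18 ± 0.12 (edgeR adjusted p = 2.26e-09) in YAP-M and 5.12 ± 0.13 (edgeR adjusted p = 8.58e-10) in YMdIDR. Ctss, the protease that trims Cd74 in macrophages, stood at 1026, 1070, 762 and 1150 CPM in YAP-M, 75.7, 94.1 and 114 in SVZ and 0.122 and 0.204 in NSC-YAP, and at 820.5, 721 and 669 in YMdIDR, where replicate 1 was highest. It rose by 3.41 ± 0.19 (edgeR adjusted p = 6.79e-08) in YAP-M against SVZ. The proteases Lgmn (2.36 ± 0.09) and Ctsz (3.07 ± 0.13) rose there as well. For NSC-YAP against SVZ, edgeR gave 2 of the 6 higher at an unadjusted p under 0.05, none of them past the fold threshold, and DESeq2 called none.

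Of 16 genes of interferon receptors and signalling, 5 were called higher in YAP-M (median of the 14 tested 0.84) and 8 in YMdIDR (median 1.14) than in SVZ. The 5 are 31.2% of the list, near the 25.8% of all tested genes called higher in YAP-M, and the 8 are 50% beside 26.9% in YMdIDR. The interferon genes of the list, Ifng and Ifnb1, were near 0, and other interferon genes were not in the list. Ifng stood at 0, 0.037, 0.213 and 0 CPM in YAP-M and 0.0855, 0.495 and 0.133 in YMdIDR. Ifnb1 stood at 0.0368, 0.222, 0.0853 and 0.148 CPM in YAP-M and 0, 0.045 and 0 in YMdIDR. Neither had a count in SVZ or NSC-YAP. Irf8, a factor of myeloid cells, rose by 2.54 ± 0.18 (edgeR adjusted p = 3.09e-07) in YAP-M and 3.37 ± 0.19 (edgeR adjusted p = 5.46e-08) in YMdIDR. The receptor chains Ifngr1 (1.91 ± 0.12) and Ifnar2 (1.11 ± 0.12) and the kinase Jak2 (1.22 ± 0.13) rose in YAP-M against SVZ, and Jak2 was higher in YAP-M than in YMdIDR (1.43 ± 0.13, edgeR adjusted p = 3.65e-05). Jak2 was the 1 gene of the list called higher in that comparison, and 2 were lower (median -0.41). These are 6.25% and 12.5% of the list, beside 9.61% and 6.78% of all tested genes.

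Class I-like genes outside the H2 names were mixed, with 4 of 8 called higher in YAP-M, 3 in YMdIDR and 2 in NSC-YAP than in SVZ. These are 50%, 37.5% and 25% of the list, beside 25.8%, 26.9% and 17.5% of all tested genes. Ulbp1, a stress ligand of the receptor Klrk1, stood at 27.1, 15.5, 14.3 and 13.6 CPM in YAP-M, 21.5, 55 and 119.6 in YMdIDR and 0.553, 0.764 and 0.293 in SVZ (5.01 ± 0.66, edgeR adjusted p = 3.15e-05 in YAP-M). Procr, the protein C receptor (3.93 ± 0.36), and Hfe, of iron uptake (1.66 ± 0.19), rose in YAP-M as well. Raet1e was called there at 0.482 to 0.993 CPM, with 1 count over SVZ (edgeR adjusted p = 0.000157). Of 9 receptors of MHC molecules, 3 were higher and 1 lower in YAP-M and in YMdIDR than in SVZ. The 3 are 33.3% of the list, near the 25.8% and 26.9% of all tested genes called higher, and the 1 is 11.1% beside 28.9% and 29.6% called lower. The inhibitory receptors of myeloid cells rose: Pirb by 4.08 ± 0.34 (edgeR adjusted p = 1.13e-06) and Lilrb4a by 7.66 ± 0.56 (edgeR adjusted p = 8.56e-07) in YAP-M. Klrk1 stood at 0.815 to 1.32 CPM in YAP-M and had 2 counts over SVZ (edgeR adjusted p = 8.22e-05). Cd4 was the receptor that fell, from 26.4, 27.1 and 29.3 CPM in SVZ to 2.35, 1.93, 0.81 and 1.52 in YAP-M (-4.05 ± 0.31, edgeR adjusted p = 5.78e-07).

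Of 17 macrophage and microglia markers, 15 were called higher in YAP-M and 14 in YMdIDR than in SVZ (medians 2.94 and 3.39), 1 was lower in YMdIDR, and 16 were lower and 1 higher in NSC-YAP. The 15 and 14 are 88.2% and 82.4% of the list, beside 25.8% and 26.9% of all tested genes. Lower calls were 5.88% of the list in YMdIDR and 94.1% in NSC-YAP, beside 29.6% and 27.6% of all tested genes. The 1 higher in NSC-YAP, 5.88% of the list beside 17.5% of all tested genes, was Cd68, named after its values were seen. It had means of 39.5 CPM in NSC-YAP and 14.1 in SVZ. The lower one in YMdIDR was P2ry12, a receptor of microglia named after its values were seen, at 35, 24.2 and 19.6 CPM in YMdIDR, 47.3, 64.7, 37.1 and 57 in YAP-M and 74.6, 90 and 105 in SVZ (-1.77 ± 0.26, edgeR adjusted p = 6.27e-05 in YMdIDR). Lyz2 stood at 574 to 1116 CPM in YAP-M and 4.24 to 8.4 in SVZ, and Csf1r at 373 to 476 and 127 to 168 CPM. The class I genes, the class II genes and these markers were thus high in the same groups, and the part of macrophages in the MHC differences was not tested. The 7 dendritic cell markers summed to 24.9 to 43.3 CPM in YAP-M and 27.4 to 57 in YMdIDR. Their sums were 11.5 to 12.7 CPM in SVZ and 13.8 to 14.6 in NSC-YAP. Most of the NSC-YAP sum was Zbtb46, with a mean of 14.1 CPM there and 4.8 in SVZ. In NSC-YAP Itgax, Xcr1, Cd209a and Ccr7 had no count. Flt3 of the same list was highest in SVZ, with means of 6.33 CPM there, 2.2 in YAP-M and 0.556 in YMdIDR. The 5 B cell markers summed to at most 1.86 CPM in any library, and Cd79b and Ms4a1 had no count in NSC-YAP. The 7 T and natural killer cell markers summed to 3.12 to 3.59 CPM in YAP-M and 4.27 to 7.95 in YMdIDR, against 0.944 to 1.93 in SVZ. In NSC-YAP they summed to 1.26 to 1.39 CPM. Lck made up most of these sums, with means of 2.55 CPM in YAP-M, 4.73 in YMdIDR, 1.22 in SVZ and 1.18 in NSC-YAP. Ncr1 had no count in YAP-M or NSC-YAP, Cd3d and Prf1 none in SVZ or NSC-YAP, and Cd3e and Cd3g none in NSC-YAP. The 6 endothelial markers summed to 244 to 357 CPM in YAP-M, 158 to 221 in YMdIDR, 134 to 188 in SVZ and 22.2 to 23.1 in NSC-YAP, where Cldn5 had no count. The 5 oligodendrocyte markers summed to 569 to 2852 CPM in YAP-M and 311 to 1007 in YMdIDR and were highest in SVZ, where Mbp alone stood at 13010, 13360 and 16070 CPM.

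In the cultured progenitors, with most macrophage markers near 0, H2-K1, B2m, H2-T22, H2-T23 and H2-DMa were not called different from SVZ. H2-D1, 5 Q region genes, H2-T24, H2-M3, H2-DMb1, H2-DMb2, H2-Oa and H2-Ob were called lower; the H2-DMb1 call was lost without SVZ replicate 3 or NSC-YAP replicate 1. Of the members, 33 of 43 stayed under 1 CPM in both NSC-YAP libraries and 19 had no count. The 10 above 1 CPM in at least 1 of them were B2m, H2-K1, H2-D1, H2-T22, H2-T23, H2-T24, H2-DMa, H2-DMb1, H2-M5 and H2-Ke6.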

How the data were processed

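Gene counts were deposited by the authors as 1 table per library for 12 RNA-seq libraries; per the submitters' processing notes TopHat2 and the mm10 build were used. For the counting method, its use of strand and its treatment of reads that fit several genes, the sources used here state nothing. The deposited tables also hold the gene length from the authors' gene models, used for CPM per kb. The 5 chromatin samples of the series were not analysed here.

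Counts were scaled by TMM, and genes that reached 1 CPM in 2 or more libraries were fitted together over all 4 groups with edgeR 4.0.16 (quasi-likelihood test, R 4.3.3, Benjamini-Hochberg adjustment over 18329 genes). A call needed an adjusted p below 0.05 and a difference of 1 or more on the log2 scale. The test was checked on simulated data. DESeq2 1.42.0, other scalings and filters, a replicate block and leaving out each library were alternatives. Library totals of 20784130 to 25463303 counts make 3 counts worth 0.118 to 0.144 CPM.

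The members and lists were chosen with earlier results of these data known. Every tested member is named. Of each pathway list, Nlrc5, Ciita, Tap1 and Psmb8 and up to 4 genes with the smallest adjusted p in YAP-M against SVZ are named, and 1 further gene of the rule is not reported here; of each cell type list, genes with the highest CPM and defining markers at 0, with other markers given by their sum. Protein sequences were not used here.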

Additional observations from a re-analysis of the deposited data

Results flagged for a closer look

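In YAP-M, replicate 4 stood far above the other 3 libraries in 4 members: H2-K2 at 10.35 CPM, H2-Q4 at 77.06 CPM, H2-Q5 at 8.089 CPM and H2-Q10 at 7.94 CPM. Chance flags about 1 in 20 groups, and 28 members were looked at in this way. All 4 are class I genes or class I pseudogenes. Of the YAP-M libraries, it also had the highest sums of oligodendrocyte, macrophage, dendritic cell, neuron and progenitor markers. Its sums of B cell, T and natural killer cell and endothelial markers were the lowest. The macrophage markers summed to 4161 CPM there and to 3333, 3770 and 2809 CPM in replicates 1 to 3. The part of these cell types in the levels was not tested.

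Rows named as pseudogenes by -ps in their symbol, which the choice of members left out, carried counts as well; RefSeq lists H2-T-ps as protein coding. H2-Ea-ps reached 13.43 CPM in YAP-M replicate 4, against at most 0.259 CPM in the other 3 YAP-M libraries, stood at 2.992, 1.622 and 0.0883 CPM in YMdIDR and had no count in SVZ or NSC-YAP. H2-T-ps reached 8.942 CPM in the same library, stood at 5.514, 6.036 and 1.943 CPM in YMdIDR and was at or below 0.147 CPM in every SVZ library.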

How the results depend on the processing

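Of 241 gene calls, refitted 3068 times in all, 213 were kept in every setting in which the gene was tested, 28 were lost in at least 1, and none changed direction. A setting whose filter removed a gene was not counted as a loss of its call. The counts of members varied most where they were small. With a minimum of 5 CPM the members called lower went from 2 to 0 in YAP-M against SVZ, from 1 to 0 in YMdIDR against SVZ, and from 2 to 0 in both comparisons with NSC-YAP, and the member called higher in NSC-YAP against SVZ went from 1 to 0; fewer members are tested there. Fitting only the compared groups gave 1 member lower in YAP-M against SVZ, and 2 instead of 7 lower in YAP-M against YMdIDR. For YMdIDR against SVZ, no filter on low counts gave 2 lower, the adjusted p alone 2, and leaving out 1 library 0 to 2. For NSC-YAP against SVZ the adjusted p alone gave 3 higher. For YAP-M against YMdIDR, DESeq2 called 1 higher and leaving out 1 library 0 to 1; of the 7 lower, no filter gave 4 and leaving out 1 library 1 to 7. The members lower in NSC-YAP than in SVZ numbered 12, and 8 to 12 on leaving out 1 library. The causes were not tested. Same-numbered samples of different groups had correlations of deviations from -0.0968 to 0.386, so the numbers were not shown to pair the samples. With the replicate number as a block, 5 members were lower in YAP-M than in YMdIDR, and 2 were higher and 14 lower in NSC-YAP than in SVZ. At this depth, members with under 3 counts in a group cannot be told from absence.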
